A study of Homo sapiens with 4 samples.

Results

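Interferon response and signalling genes are the genes that cells switch on when an interferon reaches them, together with the receptors, kinases and transcription factors that pass the signal on. The group holds 41 genes listed by name, not by their measured values, though earlier results of these data were known when they were chosen. Of these, 39 were measured, among 18132 genes in all, each read from its brightest probe set (by the mean of all arrays) among those that carry exactly 1 gene symbol. STAT2 and USP18 are not analysed here. The study asked how ELK3, a transcription factor of the ETS family, relates to the chemokine CXCL16 and to killing by natural killer cells in triple-negative breast cancer.

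Gene expression was measured on 4 Affymetrix PrimeView arrays, each hybridised with RNA from Hs578T, a human breast cancer cell line with mesenchymal features. The 2 ELK3 knockdown arrays, numbered 1 and 5, came from cells stably transduced with lentiviral shRNA against ELK3. The 2 control arrays, numbered 1 and 2, are labelled ELK3 sh control; the sequence of that shRNA is not given in the sources used here. All cells were grown in the same medium with serum, antibiotics and insulin, and no interferon treatment is named in the labels. What the numbers stand for is not in the labels, so the p-values measure only the spread between these arrays, which may be technical. The values come from bulk RNA, in which fewer cells of a type and less RNA per cell cannot be told apart.

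Type I interferons bind a receptor made of IFNAR1 and IFNAR2, whose kinases JAK1 and TYK2 phosphorylate STAT proteins. These join IRF9 in a complex that binds the interferon-stimulated response element (ISRE) in the promoters of antiviral genes. Interferon gamma acts through the gamma-activated site (GAS), which is known from the promoter of IRF1. The induced proteins block viral entry, translation, replication or release, and several of them are also expressed at a basal level in tumour cells without any added interferon.

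The promoter letters are shown first, because members that changed in opposite directions carried the same element. RefSeq promoter windows of GRCh38.p14, from 250 bases before to 50 after a start site, were found for 29 of the 39 measured members. No window was found for IFIT2, MX2, OAS2, OASL, TRIM22, GBP2, IRF2, IRF3, IRF7 and IFNAR2. The lines below hold only bases before the start site, written 5′ to 3′ on the strand of the gene, with the matched letters in capitals. For the ISRE these are TTTC, any 2 bases, and TTTC again, on either strand, so the reverse holds a pair of GAAA; for the GAS they are TTCNNNGAA. The genes BST2, IFIH1 and IFIT1 were higher in the knockdown arrays, and the others were lower.
BST2, chr19:17405720-17405785, minus strand: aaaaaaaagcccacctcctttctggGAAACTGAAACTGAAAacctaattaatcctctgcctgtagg
IFIH1, chr2:162318803-162318868, minus strand: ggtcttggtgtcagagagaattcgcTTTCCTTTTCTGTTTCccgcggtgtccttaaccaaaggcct
IFIT1, chr10:89392482-89392554, plus strand: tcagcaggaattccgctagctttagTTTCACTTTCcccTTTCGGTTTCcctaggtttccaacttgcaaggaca
IFIT3, chr10:89332410-89332469, plus strand: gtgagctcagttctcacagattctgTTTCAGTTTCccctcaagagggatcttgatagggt
IFI44, chr1:78649746-78649788, plus strand: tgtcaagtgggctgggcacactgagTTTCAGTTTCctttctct
GBP1, chr1:89065301-89065360, minus strand: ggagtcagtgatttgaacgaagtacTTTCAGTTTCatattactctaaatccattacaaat
ISG15, chr1:1013359-1013424, plus strand: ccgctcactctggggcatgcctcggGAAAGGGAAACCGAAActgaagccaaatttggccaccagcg
IRF1 (GAS letters), chr5:132490864-132490922, minus strand: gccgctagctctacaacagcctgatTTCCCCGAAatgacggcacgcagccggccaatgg

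The ISRE letters were present in 20 of the 29 members with a window (69.0%), against 4.15% of the 14425 measured genes that have one. The members were listed as interferon genes, and the ISRE is known from promoters of such genes. A higher share therefore comes with the choice of list. All 4 members with a window that rose carried the ISRE letters, as did 10 of the 17 that fell and 6 of the 8 that did not pass. Whether these shares differ by direction was not tested. The members that fell and had no ISRE letters in their windows were IFI16, XAF1, IRF1, IRF9, IFNAR1, JAK1 and TYK2. With AG required before the first TTTC, the share was 41.4% of members against 0.367% of measured genes, with 3 of the 4 that rose, 7 of the 17 that fell and 2 of the 8 that did not pass. The GAS letters were found in 9 of 29 members (31.0%) and in 9.23% of measured genes, and in 3 members (BST2, IFI27 and MX1) they overlapped an ISRE match. The letters CCGGAAGT, which ETS factors are known to bind, were found in 1 member, JAK1, and in 7.20% of measured genes. A match is a description of these letters and not evidence of a bound site. The same windows are drawn to scale in the map of promoter letters.

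**Figure D1:**
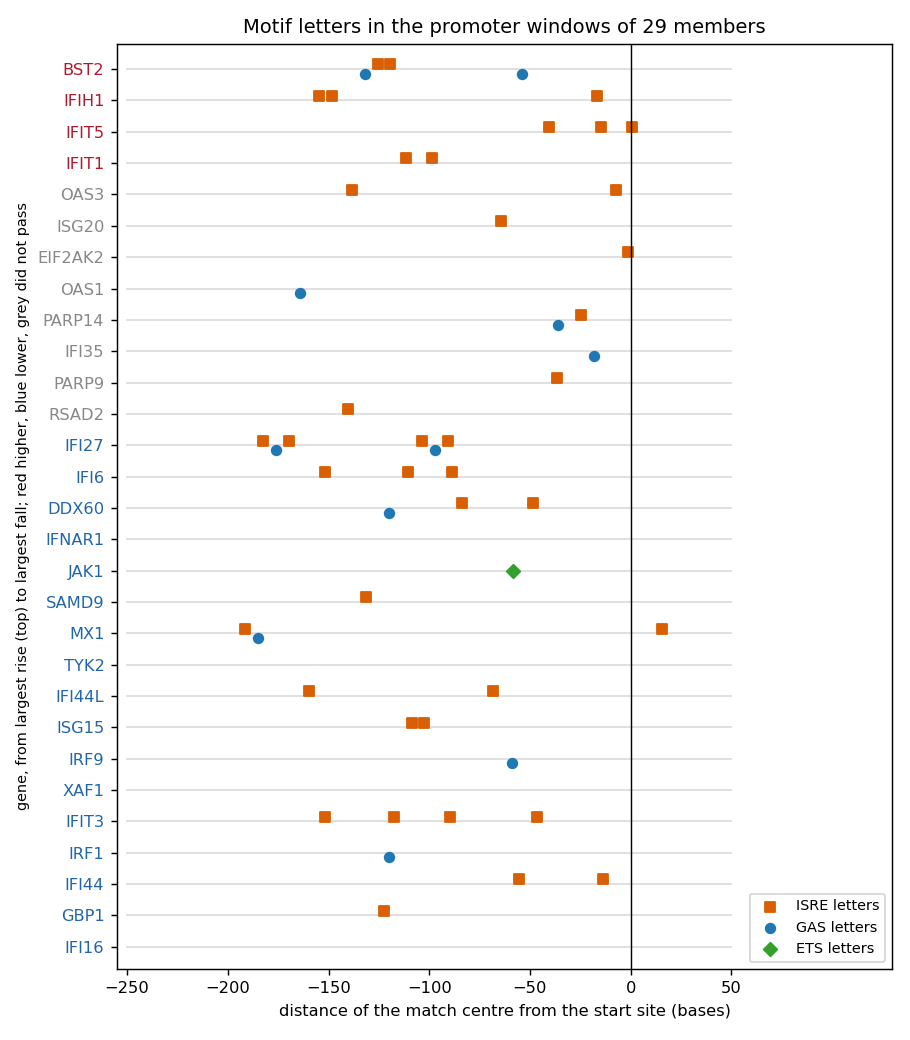
Position of the ISRE, GAS and ETS letters in the promoter windows of 29 members, as the distance in bases of the match centre from the start site; each grey line is the window, genes with several start sites show the matches of all their windows on 1 line, and gene names are red where the gene was higher, blue where lower and grey where it did not pass. The ISRE letters occur from the top of the plot, with BST2, to near its bottom, with IFI44 and GBP1. IFI16, at the very bottom, and XAF1 show no match of any kind.

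Facts of the whole series bear on every value below. ELK3 itself read 8.09 and 7.92 in knockdown replicates 1 and 5, against 10.05 and 10.07 in control replicates 1 and 2, a 4.16-fold fall (log2 change -2.06, SE 0.09, limma adjusted p = 2.57e-06). The arrays of a group correlated at 0.996 (knockdown) and 0.998 (control) across all probe sets, and arrays of different groups at 0.902 to 0.904. Of the 7 mesenchymal markers checked, 7 were high in the control arrays and lower in the knockdown arrays; their mean log2 signal was 12.55 and 12.50 in the controls and 9.57 and 9.55 in knockdown replicates 1 and 5. Of 6 epithelial markers, KRT8 and KRT18 rose, and the defining genes EPCAM and CDH1 stayed between 3.67 and 4.50 on all arrays, near the array minima of 2.97 to 3.07. Of 6 leukocyte markers, 5 were below the median gene (7.35) on all arrays, and the pan-leukocyte gene PTPRC lay between 3.60 and 3.78. The leukocyte means were 5.29 and 5.34 in the knockdown arrays against 5.63 and 5.57, with 1 of 6 lower; 1 of 4 markers of plasmacytoid dendritic cells was higher, and 1 of 4 endothelial markers lower. The part of this general shift in the results on interferon genes was not tested.

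Most interferon genes were lower after ELK3 knockdown. With a threshold of 0.05 on the limma p adjusted over all 18132 genes, 23 of the 39 measured members fell (59.0%), where 21.3% of all genes fell, and 5 rose (12.8%), where 29.5% of all genes rose; 11 did not pass. Of the 39 members, 13 fell over 2-fold, where 7.51% of all genes did, and 3 rose over 2-fold, where 10.2% of all genes did. The median log2 change was -0.56 over the members and -0.01 over all genes. The changes ran from -5.44 for IFI16 to 4.48 for BST2. The 5 that rose were BST2, IRF7, IFIH1, IFIT5 and IFIT1. For 1 gene, the smallest p that an exact permutation test allows with 2 arrays against 2 is 0.33, so the calls rest on the spread that limma shares across genes. Fits named below with 1 array left out hold 1 array in a group, so calls lost in them are uncertain.

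**Figure D2:**
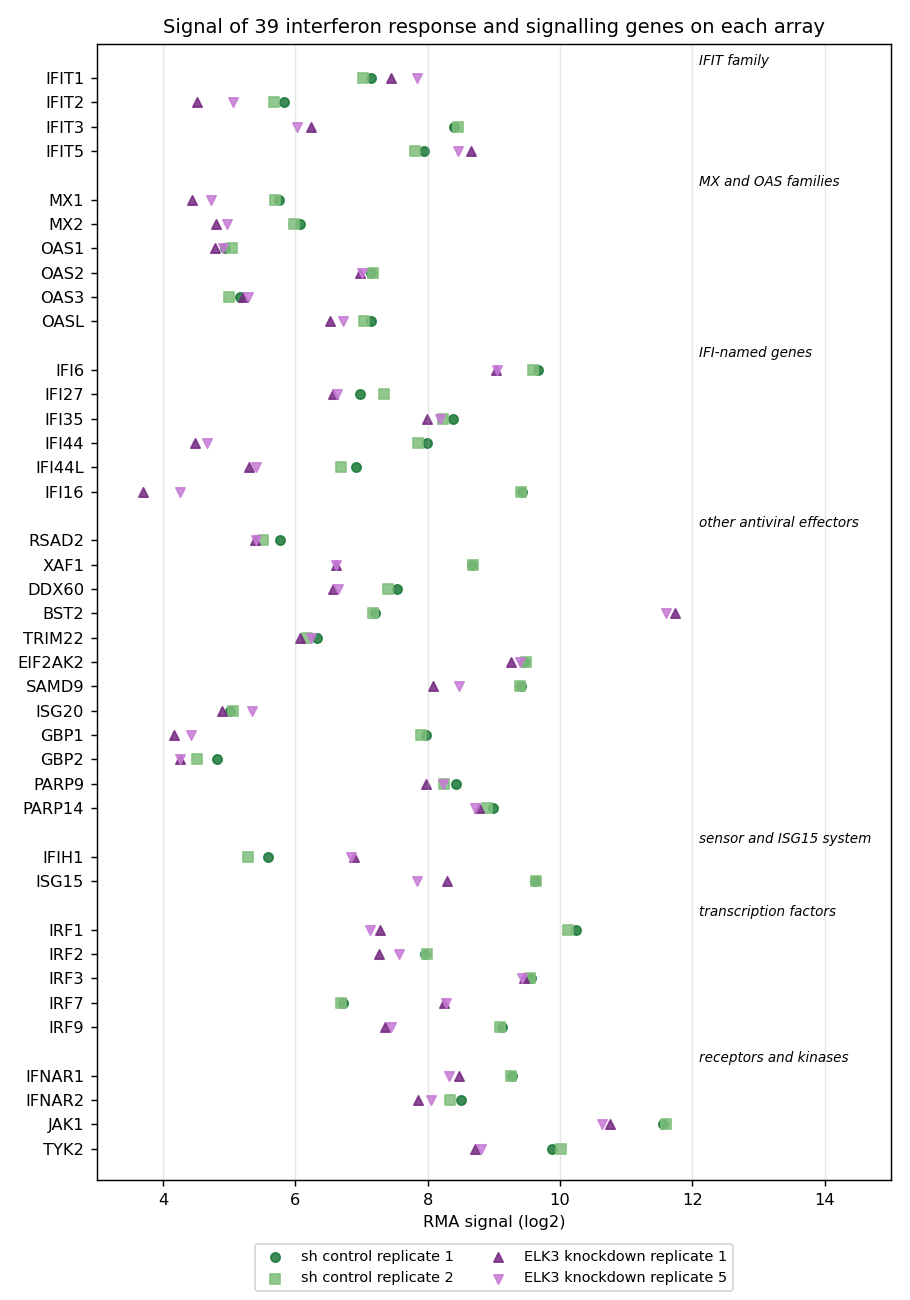
RMA signal (log2, x axis) of the 39 measured members on each of the 4 arrays, ordered by role; circles and squares are the control arrays and triangles the knockdown arrays. The 2 arrays of a group lie close together for most genes, and the knockdown arrays stand to the left of the controls for all 4 receptor and kinase genes and to the right for BST2, IRF7 and IFIH1.

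The genes that receive the signal were lower as a group of 4 (100%, against 21.3% of all genes). IFNAR1, a chain of the type I interferon receptor, read 8.47 and 8.32 in knockdown replicates 1 and 5, against 9.28 and 9.26 in control replicates 1 and 2, which is 1.84-fold lower (log2 change -0.88, SE 0.09, adjusted p = 1.66e-04). IFNAR2, the other chain, read 7.85 and 8.06 against 8.51 and 8.34, or 1.39-fold lower (SE 0.12 on the log2 scale, adjusted p = 0.0112). It no longer passed without control replicate 1, at -0.39. JAK1, a kinase shared by many cytokine receptors, read 10.75 and 10.63 against 11.56 and 11.61, or 1.86-fold lower (SE 0.07, adjusted p = 3.00e-05). TYK2, the kinase bound to IFNAR1, fell most, from 9.88 and 10.02 to 8.72 and 8.80, or 2.28-fold (SE 0.09, adjusted p = 2.86e-05). For none of the 4 did the groups overlap, but they overlapped for only 4479 of all 18132 genes. Every probe set of these 4 genes was lower (IFNAR1 4 of 4, IFNAR2 3 of 3, JAK1 3 of 3, TYK2 1 of 1).

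The transcription factors moved in both directions. IRF1, which is induced by interferon gamma and activates antigen presentation genes, read 7.27 and 7.13 in knockdown replicates 1 and 5 against 10.24 and 10.12 in control replicates 1 and 2, a 7.89-fold fall (log2 change -2.98, SE 0.10, adjusted p = 8.23e-07); averaged over its 4 probe sets the change was -2.26. IRF9, the DNA-binding partner of the STAT complex, read 7.36 and 7.44 against 9.12 and 9.09, a 3.26-fold fall (log2 change -1.70, SE 0.09, adjusted p = 6.75e-06). IRF2, known as an antagonist of IRF1, read 7.26 and 7.57 against 7.96 and 7.99, a 1.47-fold fall (adjusted p = 0.00835). IRF7, the factor that amplifies type I interferon production, went the other way and was 2.95-fold higher. It read 8.25 and 8.28 in the knockdown arrays against 6.72 and 6.68 (log2 change 1.56, SE 0.10, adjusted p = 1.48e-05), so its groups lay 1.53 log2 units apart. IRF3, the factor activated by viral sensors without new synthesis, read 9.45 and 9.42 against 9.57 and 9.55 and did not pass (log2 change -0.12, adjusted p = 0.218). Averaged over its 6 probe sets, all of them lower, IRF3 passed at -0.22.

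**Figure D3:**
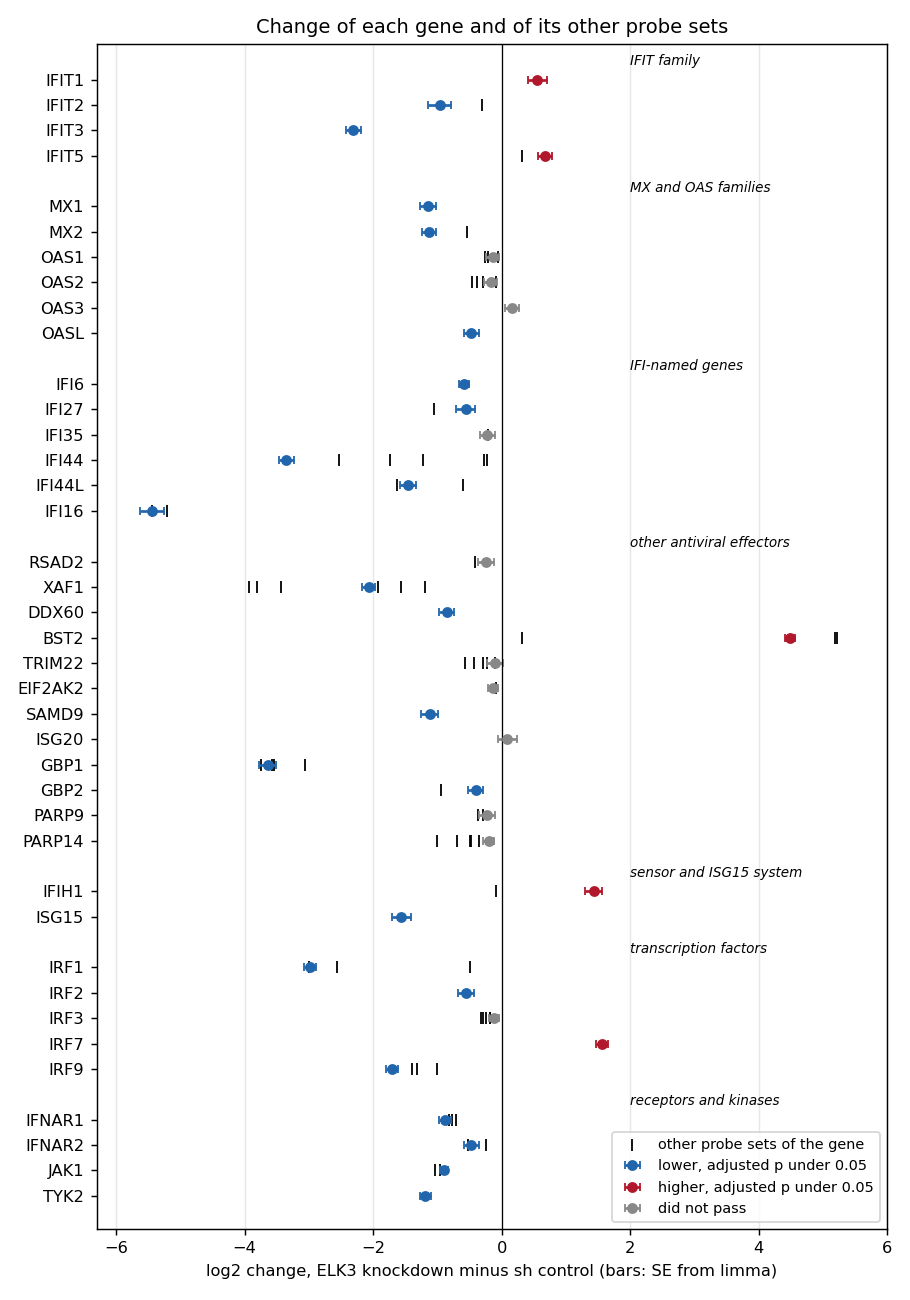
Log2 change of each member, knockdown minus control (x axis); dots are the probe set read for the gene, coloured by the test, bars are the limma SE, and black ticks are the other probe sets of the same gene. The ticks lie on the same side of 0 as the dot for every gene but IFIH1, while their distance from it differs, from close together (GBP1, IFI16) to wide apart (IFI44, XAF1, BST2).

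The IFIT family, whose proteins bind foreign RNA and block its translation, was divided evenly. Of its 4 genes 50% fell and 50% rose, against 21.3% and 29.5% of all genes. IFIT3 read 6.23 and 6.02 in knockdown replicates 1 and 5, against 8.40 and 8.47 in control replicates 1 and 2, and was 4.95-fold lower (SE 0.12 on the log2 scale, adjusted p = 5.08e-06). IFIT2 read 4.51 and 5.06 against 5.82 and 5.67, or 1.95-fold lower (SE 0.18, adjusted p = 0.0034). IFIT5 read 8.65 and 8.46 against 7.94 and 7.81, or 1.60-fold higher (SE 0.11, adjusted p = 0.00154). IFIT1 read 7.44 and 7.84 against 7.15 and 7.03, or 1.47-fold higher (SE 0.15, adjusted p = 0.0184), and no longer passed without control replicate 2, at 0.50. In the gene table of GRCh38.p14 these genes lie next to each other on chromosome 10 in the order IFIT2, IFIT3, IFIT1 and IFIT5, with 1 other protein-coding gene between IFIT3 and IFIT1. The pair that fell and the pair that rose are therefore each adjacent. The only IFIT3 probe set has a name that marks cross-hybridisation, and whether it also reads a related transcript was not tested.

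Among the MX and OAS families, 3 of 6 genes fell (50%, against 21.3% of all genes) and none of the 6 rose (29.5% of all genes did). MX1, a GTPase that traps viral nucleocapsids, read 4.43 and 4.72 in knockdown replicates 1 and 5 against 5.75 and 5.69 in control replicates 1 and 2, or 2.21-fold lower (SE 0.12, adjusted p = 2.06e-04). Its neighbour MX2, which acts on retroviral nuclear entry, read 4.81 and 4.97 against 6.07 and 5.98, or 2.20-fold lower (SE 0.11, adjusted p = 1.20e-04). The signals of both were in the dim range on all arrays, and all 6 genes of these families had a mean below the median gene (7.35). OAS1 and OAS3 had means of 4.85 and 5.25 in the knockdown arrays and 4.99 and 5.09 in the controls. OASL, an OAS-like protein that enhances RNA sensing, was 1.39-fold lower (log2 change -0.47, adjusted p = 0.0144), and no longer passed without control replicate 1, at -0.42. OAS1, OAS2 and OAS3, which sense double-stranded RNA and make a second messenger, stood at -0.14, -0.17 and 0.16 and did not pass; averaged over its 5 probe sets OAS2 passed at -0.28.

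The largest fall was that of IFI16, a nuclear and cytosolic DNA sensor. It read 3.70 and 4.26 in knockdown replicates 1 and 5, against 9.43 and 9.41 in control replicates 1 and 2, and its mean of 9.42 ± 0.0091 (SD, n = 2) in the controls stood against 3.98 ± 0.39 (SD, n = 2). It was 43.4-fold lower (log2 change -5.44, SE 0.18, adjusted p = 8.65e-07). Its 3 probe sets changed by -5.44 to -5.20 on the log2 scale, and the knockdown values lie near the floor of the arrays, which partly sets this fold. All 3 have names that mark cross-hybridisation. IFI44, a cytoplasmic protein of uncertain function, was 10.2-fold lower: it read 4.49 and 4.66 against 7.99 and 7.86 (SE 0.12, adjusted p = 1.12e-06). Its knockdown values also lie near the floor, which partly sets this fold. All 6 of its probe sets were lower, at -3.35 to -0.23 on the log2 scale, and with their mean the change was -1.56. The adjacent gene IFI44L read 5.30 and 5.41 against 6.92 and 6.69, or 2.74-fold lower (SE 0.13, adjusted p = 6.65e-05).

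Smaller differences were found for the remaining IFI-named genes. IFI6, an inhibitor of apoptosis and of flavivirus replication, was lower on both knockdown arrays (9.04 and 9.05 against 9.67 and 9.60), a 1.50-fold fall (adjusted p = 5.70e-04). IFI27, a mitochondrial and nuclear-envelope protein that is among the most responsive interferon genes in blood, was 1.48-fold lower (adjusted p = 0.0139), and no longer passed without control replicate 2, at -0.38. IFI35, a regulator of innate signalling, stood at -0.22 and did not pass. Without knockdown replicate 5 its change was -0.32.

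GBP1, a GTPase that coats intracellular bacteria and is induced mainly by interferon gamma, read 4.16 and 4.42 in knockdown replicates 1 and 5 against 7.97 and 7.90 in control replicates 1 and 2. It was 12.5-fold lower (log2 change -3.64, SE 0.13, adjusted p = 1.02e-06), and its 5 probe sets stood at -3.75 to -3.06. Its knockdown values lie near the floor of the arrays, which partly sets this fold. XAF1, a pro-apoptotic antagonist of XIAP, read 6.61 on both knockdown arrays and 8.68 on both controls, or 4.20-fold lower (SE 0.10, adjusted p = 3.45e-06). Its 7 probe sets were all lower, at -3.93 to -1.20, so the probe set read here shows less than the largest of these falls. SAMD9, a restriction factor of poxviruses, read 8.08 and 8.48 against 9.41 and 9.39, or 2.18-fold lower (SE 0.14, adjusted p = 3.61e-04). DDX60, a helicase linked to RNA sensing, was 1.81-fold lower (adjusted p = 5.17e-04), and GBP2, the neighbour of GBP1, 1.32-fold lower (adjusted p = 0.0249). GBP2 was dim in both groups, with means of 4.26 in the knockdown arrays and 4.66 in the controls. The call of GBP2 was lost without control replicate 1, at -0.25.

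BST2 was the only one of the 12 other antiviral effectors that rose (8.33%, against 29.5% of all genes). This gene encodes tetherin, a membrane protein that holds budding virus particles on the cell surface. It read 11.74 and 11.61 in knockdown replicates 1 and 5, against 7.21 and 7.17 in control replicates 1 and 2, with means of 11.67 ± 0.094 (SD, n = 2) and 7.19 ± 0.026 (SD, n = 2). It was 22.4-fold higher (log2 change 4.48, SE 0.08, adjusted p = 1.63e-07). Its 4 probe sets rose by between 0.32 and 5.22, the smallest being the dimmest, and with their mean the change was 3.80. The groups lay 4.40 log2 units apart.

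Of the 12 other antiviral effectors, 5 fell (41.7%, against 21.3% of all genes), 1 rose (8.33%, against 29.5%) and 6 did not pass. The 6 were RSAD2 (viperin, at -0.24), TRIM22 (-0.10), the RNA-dependent kinase gene EIF2AK2 (-0.14), the exonuclease gene ISG20 (0.09), and the ADP-ribosyltransferase genes PARP9 (-0.23) and PARP14 (-0.20). The groups overlapped for TRIM22 and ISG20, and without knockdown replicate 5 ISG20 stood at -0.13. Without knockdown replicate 5, EIF2AK2 stood at -0.20 and PARP9 at -0.35. PARP14 stood at -0.24 without knockdown replicate 1. It passed at -0.24 after quantile normalization, at -0.54 when its 6 probe sets were averaged and at -0.70 without those that may cross-hybridise. With the mean of probe sets, RSAD2 (-0.33) and TRIM22 (-0.29) passed too.

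ISG15 and IFIH1 moved apart. ISG15, a ubiquitin-like protein that is attached to newly made proteins, read 8.29 and 7.84 in knockdown replicates 1 and 5 against 9.63 and 9.63 in control replicates 1 and 2, or 2.95-fold lower (log2 change -1.56, SE 0.15, adjusted p = 9.44e-05). It has 1 probe set, whose name marks cross-hybridisation. IFIH1, the sensor MDA5 of long double-stranded RNA, read 6.89 and 6.84 against 5.58 and 5.28, or 2.70-fold higher (log2 change 1.43, SE 0.13, adjusted p = 9.55e-05). IFIH1 was the only one of the 26 members with several probe sets whose probe sets differed in sign; the other, dimmer one stood at -0.09, and with their mean the change was 0.67.

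**Figure D4:**
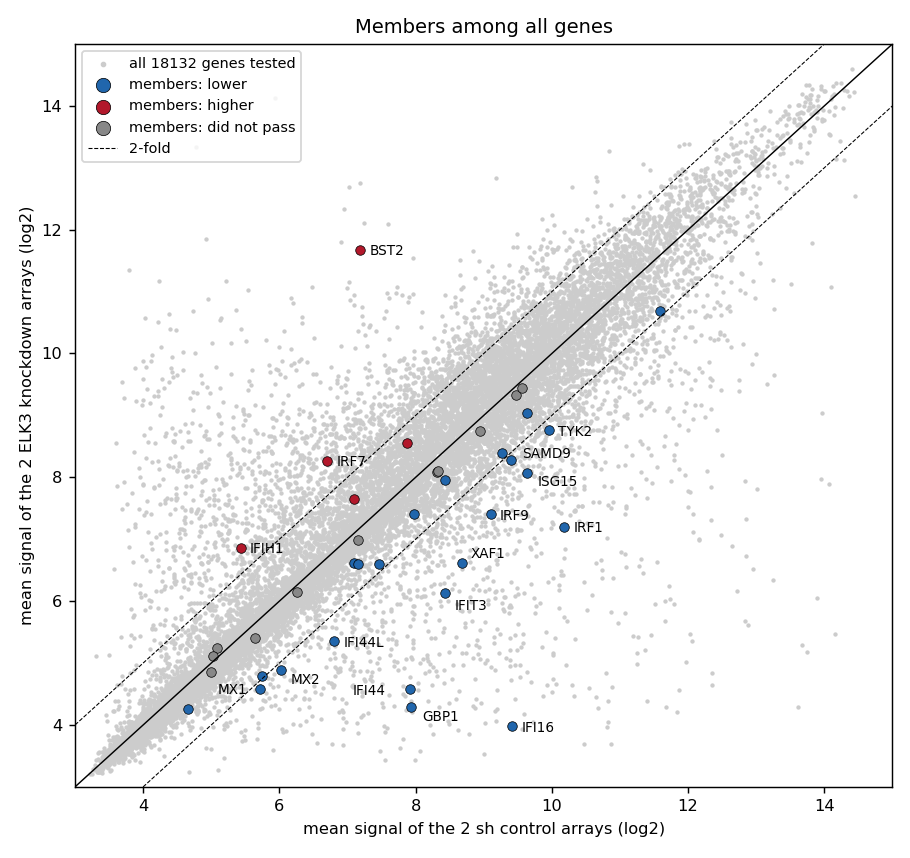
Mean signal of the 2 knockdown arrays (log2, y axis) against that of the 2 control arrays (log2, x axis) for all 18132 genes (grey) and the 39 members (coloured by the test); the solid line marks equal signal and the dashed lines a 2-fold difference. The members that changed over 2-fold are named: 13 lie below the lower dashed line and 3 (BST2, IRF7 and IFIH1) above the upper one.

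The wider pathway also held genes that fell and genes that rose. A list of 71 further interferon genes was written from textbook knowledge, with earlier results of these data known. Of these genes, 66 were measured: 30 fell (45.5%, against 21.3% of all genes), 12 rose (18.2%, against 29.5% of all genes) and 24 did not pass. Their median log2 change was -0.22. Among the interferon ligands 1 of 5 fell, a share (20%) near the 21.3% of all genes. This was IFNE, the epithelial type I interferon. It went from 5.80 and 5.70 in control replicates 1 and 2 to 4.20 and 4.35 in knockdown replicates 1 and 5 (2.78-fold, adjusted p = 2.51e-05). Its knockdown values lie near the floor of the arrays, which partly sets this fold. The ligand genes IFNB1, IFNG, IFNK and IFNL1, named after their values were seen, did not pass and lay between -0.20 and -0.03. Of these, IFNK was the dimmest, with means of 3.48 (knockdown) and 3.54 (control), and IFNG the brightest, at 5.15 and 5.17. All 5 measured ligand genes had a mean signal below the median gene (7.35). At such signals, the lack of a call does not show that expression stayed the same. Of 10 sensors and their signalling genes, 6 fell (60.0%, against 21.3% of all genes) and 1 rose (10.0%, against 29.5%). TLR4, the lipopolysaccharide receptor, was 18.1-fold lower (adjusted p = 1.44e-06), the DNA sensor gene CGAS 3.69-fold (adjusted p = 3.07e-05) and the RNA sensor gene RIGI 2.67-fold (adjusted p = 4.36e-05). RIGI, which recognises short RNA with a 5′ triphosphate, thus changed in the opposite direction to IFIH1, the related sensor described above. With the mean of probe sets TLR4 was at -3.23, and with cross-hybridising ones left out CGAS was at -2.50. The gene that rose was the kinase gene TBK1 (0.36), also named after its values were seen.

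The largest rise on this list was that of IFNLR1, the specific chain of the type III interferon receptor. It read 8.51 and 8.83 in knockdown replicates 1 and 5 against 4.18 and 4.45 in control replicates 1 and 2. It was 20.4-fold higher (log2 change 4.35, SE 0.15, adjusted p = 1.07e-06), from 1 probe set whose name marks cross-hybridisation. The control values lie near the floor of the arrays, which partly sets this fold. The gene of the other chain, IL10RB, named after its values were seen, was lower at -0.30 (adjusted p = 0.019). Of the 6 type II and III receptor and kinase genes, 4 fell (66.7%, against 21.3% of all genes) and IFNLR1 alone rose (16.7%, against 29.5%). Those that fell included JAK2 (-0.92, adjusted p = 0.00194) and the interferon gamma receptor chain IFNGR2 (-0.30, adjusted p = 0.00985). IFNGR2 no longer passed without control replicate 1, at -0.26. Of 8 negative regulators, 3 rose (37.5%) and 2 fell (25%), shares near the 29.5% and 21.3% of all genes. The phosphatase genes PTPN6 and PTPN2 were 2.59-fold and 1.91-fold higher (adjusted p = 7.49e-05 and 1.95e-04), and SOCS1, a feedback inhibitor of JAK kinases, was lower at -0.62 (adjusted p = 0.0108).

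Of 37 further interferon-stimulated genes, 17 fell (45.9%, against 21.3% of all genes) and 7 rose (18.9%, against 29.5%). GBP3, a relative of GBP1, was 24.1-fold lower (adjusted p = 5.45e-06), and SAMD9L, a paralogue of SAMD9, 8.50-fold lower (adjusted p = 1.22e-06), or -2.24 when its probe sets were averaged. HERC5, the ligase that attaches ISG15 to proteins, was 16.6-fold higher: it read 8.47 and 8.08 in knockdown replicates 1 and 5, against 4.07 and 4.36 in control replicates 1 and 2 (SE 0.17, adjusted p = 2.01e-06). The control values of HERC5 and the knockdown values of GBP3 lie near the floor of the arrays, which partly sets these folds. ISG15 and HERC5 were measured on opposite sides of 0. UBE2L6, another enzyme of ISG15 conjugation on this list, named after its values were seen, was 4.83-fold lower (adjusted p = 2.99e-06).

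**Figure D5:**
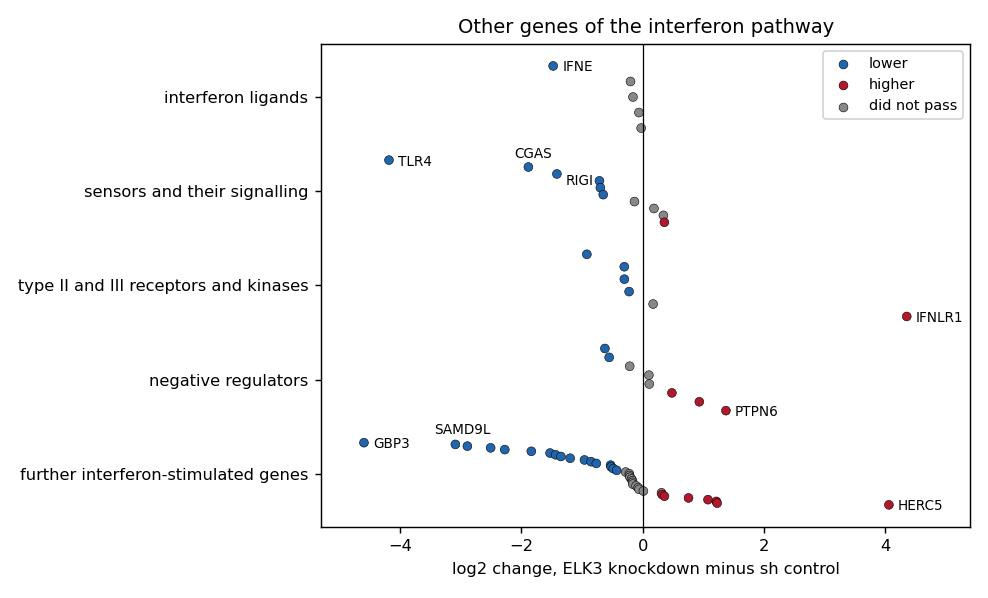
Log2 change, knockdown minus control (x axis), of 66 further interferon pathway genes in 5 groups (y axis); each point is a gene, spread vertically in the order of its change and coloured by the test. Points reach from GBP3 (-4.59) and TLR4 (-4.18) on the left to HERC5 (4.06) and IFNLR1 (4.35) on the right.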

How the data were processed

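Per the submitters' processing notes, the deposited log2 signals of the probe sets come from RMA; the sources used here give neither its version nor its settings. RMA tables hold no detection call, so folds of dim genes depend partly on the dimmest values an array gives. The number of arrays limits the precision.

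Of 49293 probe sets, 44988 had 1 symbol in the platform's annotation, 1832 several and 2473 none; 0 symbols needed an update. Groups were compared across all 18132 genes with limma 3.58.1 in R 4.3.3 (lmFit, eBayes with an intensity trend, two-sided, Benjamini-Hochberg adjustment over all genes, threshold 0.05), with residual and prior degrees of freedom of 2 and 4.83; the fit was tested on simulated data, in which the share of false calls lay above the nominal level, so calls near the threshold are less certain than their adjusted p. The members and lists were chosen with earlier results of these data known. Named were ELK3, members past the threshold with an absolute log2 change over 1, all receptor, kinase and transcription factor members, members whose probe sets differ in sign, and up to 3 called genes of each further group; the other members, and the marker genes, are named to account for them and were chosen after their values were seen.

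Promoter windows came from RefSeq (GRCh38.p14), and the gene table of the same assembly gave neighbouring genes. Figures were drawn with matplotlib 3.10.9.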

Additional observations from a re-analysis of the deposited data

How the results depend on the processing

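The alternatives were no intensity trend, robust moderation, the mean of all probe sets, cross-hybridising probe sets left out, dim genes left out, quantile normalization, array medians subtracted, 2 other call rules, and each array left out in turn. With dim genes (mean under 7.35) left out, 20 of the 39 members were still tested: 11 fell, 6 of them over 2-fold, and of the other pathway genes 17 fell and 7 rose. Fewer genes are tested in that setting, of which 2671 of 9066 fell and 4060 rose, with a median of 0.13. Each fit with 1 array left out rests on 1 array in a group, so its counts of calls are not given here. Without cross-hybridising probe sets 18 members fell, where 3525 of the 16701 genes tested fell. IFIT3, OASL, IFI27, IFI16, GBP2 and ISG15 had no probe set left and were not tested, and PARP14 passed at -0.70. With fold over 1.5 and unadjusted p under 0.05, 18 members fell and 4 rose, where 2284 and 3469 of all 18132 genes did. The only sign that turned was that of ISG20, which did not pass, at -0.13 without knockdown replicate 5; its values with 1 array left out ran from -0.13 to 0.31. ELK3 stayed between -2.14 and -1.98. The share of members with ISRE letters was 65.5% before the start site only and 41.4% with the longer letters. No paired analysis was possible because the groups share only the replicate number 1.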
